A study of Mus musculus with 18 samples.

Results

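The resting transcriptome of unstimulated peritoneal eosinophils is described from 6 of the 18 libraries of a mouse eosinophil series. Members were chosen by their labels: the 3 libraries named EosOnly (a, b and c) and the 3 named Eosinophlisonly (d, e and f), all eosinophils cultured for 18 h with no stimulus. The cells came from the peritoneal cavity of C57BL/6 NJ.1638 Il5Tg mice, which carry an Il5 transgene driven by the CD3δ promoter of T cells. Beads against Thy1.2 and B220 were used to deplete T and B cells. The cells were then kept in DMEM with 10% fetal calf serum at 37 °C. The paper describes the other cells left among the eosinophils as mostly lymphocytes. Sex and age are not given in the sources used here. The other 12 libraries are eosinophils of the same strain kept 18 h with heat-inactivated E. coli, IFN-γ, both together or IL-4, and serve only to follow the 4 marker genes. The deposited counts come in 2 file layouts: layout 1 holds a to c with the E. coli and IFN-γ libraries, and layout 2 holds d to f with the IL-4 libraries. Layout, library preparation, sequencing run and donor mice cannot be told apart, so a difference between layouts cannot be assigned to any 1 of them or to the state of the cells.

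Eosinophils are granulocytes of the bone marrow that depend on IL-5 for their output and survival and on the receptor Ccr3 for their movement towards eotaxins. Their granules carry major basic protein (Prg2), eosinophil peroxidase (Epx) and ribonucleases of the Ear family, and mouse eosinophils carry the inhibitory lectin Siglecf on the surface. Levels are given as CPM, counts per 1e6 counts on genes in that library, and, where genes are set beside each other, also per kb of exon.

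Libraries a, b and c hold 2419241, 1562034 and 2211861 counts on genes, and d, e and f hold 3625036, 6482289 and 5294968. A floor of 3 counts stands for 1.24 to 1.92 CPM in a to c and 0.463 to 0.828 CPM in d to f. In a to c 11268 genes reached 1 CPM in every library, in d to f 10259, and 9646 genes did so in all 6. The highest count of any gene was 4093, 4089 and 4094 in a, b and c, just under 4096, the number of different 6-base molecular identifiers. In all 12 layout 1 libraries the highest count was 4089 to 4095, whereas in d, e and f 103, 229 and 176 genes were above 4096 and Retnla reached 87377, 191131 and 120584 counts. The ceiling equals 1693, 2622 and 1852 CPM in a, b and c, so the order of genes near it in layout 1 cannot be told. Intervals and floors cover counting error and the spread between these libraries only. Nothing in the labels says that the replicates are separate animals, so p-values measure only the spread between these samples.

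Some libraries stand apart and bear on all that follows. Xist, the RNA that coats the inactive X chromosome of female cells, was at 615, 431 and 546 CPM in a to c and 3.86, 0.309 and 1.51 CPM in d to f. The Y-linked genes had the opposite pattern: Ddx3y was at 0 CPM in all of a to c and 178, 99.5 and 151 CPM in d to f, at least 94.7-fold higher in d to f, and Eif2s3y at 0, 0.640 and 0.452 CPM in a to c and 64.6, 66.3 and 63.1 CPM in d to f. Xist was high in a to c and near 0 in d to f, Y-linked genes the reverse, with no overlap, so sex chromosome genes divide the libraries exactly as layout does. Kdm5d and Uty, also Y-linked, were at 2.89, 1.28 and 1.81 CPM in a to c and 10.5, 7.71 and 9.82 CPM in d to f and at 0.413, 0.640 and 0.452 CPM in a to c and 16.8, 7.10 and 27.6 CPM in d to f. Kdm5d has a near-identical copy and Xist overlaps another gene, so their counts are uncertain. Among 2967 genes at 50 CPM or more in d to f, library e was the one farthest from the other 2 for 54.4%, and for 120 of the 144 genes whose range reached 2-fold. In a to c library b was farthest for 45.4% of 4096 genes, and for 51 of 61 with a range of 2-fold.

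The 4 eosinophil markers were present in every unstimulated library. Ccr3, the eotaxin receptor, was at 1362, 1722 and 1488 CPM in a to c and 1851, 2489 and 1912 CPM in d to f and ranked 42 and 45 by mean CPM in the 2 layouts. Siglecf was at 1057, 1179 and 1031 CPM in a to c and 671, 689 and 707 CPM in d to f, and Il5ra, the IL-5-binding chain of the IL-5 receptor, at 230.2, 156 and 193 CPM in a to c and 43.0, 35.8 and 41.4 CPM in d to f. Prg2 was at 29.8, 32.6 and 32.1 CPM in a to c and 29.0, 44.6 and 28.1 CPM in d to f. Per kb of exon Prg2 stood below Ccr3 in both layouts, at levels of 106 ± 4.98 against 1314 ± 116 CPM per kb in a to c and 95.9 ± 25.5 against 1510.4 ± 244 in d to f (mean ± SD, n = 3). These levels show the markers of the label, with a strong Ccr3 and Siglecf signal and a low level of Prg2 mRNA and, in d to f, of Il5ra mRNA. They do not give the share of other cells.

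Markers of other cells of the peritoneal wash were looked for in 9 lists. Macrophage genes gave the largest sum, 6232, 7136 and 6407 CPM in a to c and 14252, 12372 and 16863 CPM in d to f, but most of it came from Saa3, an acute phase protein, at 1677, 2446 and 1823 CPM in a to c and 7583, 5950.2 and 9176 CPM in d to f, and from Alox15, which eosinophils express themselves. More specific macrophage genes were lower by CPM than Saa3 and Alox15 and present in every library: C1qc was at 292, 189 and 263 CPM in a to c and 736, 651 and 1022 CPM in d to f and C1qb at 173, 122 and 165 CPM in a to c and 634, 827 and 850.4 CPM in d to f. The eosinophil marker Siglecf stood above both in a to c, at 1057, 1179 and 1031 CPM. In d to f it stood among their values, at 671, 689 and 707 CPM. Timd4 was at 30.2, 24.3 and 36.2 CPM in a to c and 54.6, 49.5 and 75.7 CPM in d to f and Vsig4 at 15.3, 8.96 and 13.1 CPM in a to c and 35.3, 31.8 and 36.8 CPM in d to f. In each of these 4 complement and scavenger genes d to f lay above a to c without overlap, with Timd4, Vsig4 and C1qb chosen after their values were seen. The layouts did not overlap by CPM, in either direction, for 65.3% of all genes tested. Of 18 macrophage genes tested 15 were higher in d to f and none in a to c, with a median log2 difference of 1.49 against -0.02 over all genes (0.93 against -0.57 with library totals alone, where 10 were higher in d to f and 1 in a to c). Of all genes tested 21.8% were higher in d to f (9.52% with totals alone). Of all genes at 100 to 300 CPM by the mean of the 2 layouts, where the median of this list, 132 CPM, lies, 32.8% were, with a median of 0.11.

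B cell and plasma cell genes had the opposite pattern. Their sum was 409, 355 and 251 CPM in a to c and 93.5, 88.9 and 160 CPM in d to f. Ighm, the IgM heavy chain, was at 143, 106 and 70.1 CPM in a to c and 18.5, 17.1 and 29.7 CPM in d to f. Cd79b was at 21.1, 17.9 and 10.9 CPM in a to c and 2.48, 2.01 and 3.40 CPM in d to f and Cd79a, chosen after its values were seen, at 49.6, 49.9 and 28.9 CPM in a to c and 1.10, 0.154 and 0.378 CPM in d to f. All 3 were higher in a to c without overlap, though Cd79a has a near-identical copy. For 65.3% of all genes tested the layouts did not overlap in either direction. Of 10 B cell genes tested 6 were higher in a to c and 1 in d to f (8 and 1 with totals alone), against 23.9 and 21.8% of all genes (49.4 and 9.52%). The median log2 difference was -1.26 against -0.02 over all genes (-1.81 against -0.57 with totals alone). The calls on Igkc and Iglc1 are lost without a, b, d or e. That on Igkc (adjusted p = 0.0496) is also lost with DESeq2 size factors and with the ceiling corrected, and that on Iglc1 (adjusted p = 0.0426) with DESeq2.

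T and NK cell genes were scarce, with sums of 15.7, 9.60 and 13.1 CPM in a to c and 8.28, 5.09 and 6.42 CPM in d to f, and 12 of 17 members, among them Cd3e, Thy1 and Nkg7, stayed at 3 counts or fewer in all 6 libraries. Trbc1, Klrb1c and Gzma were at 0 throughout. Cd3d was at 9.09, 5.76 and 3.16 CPM in a to c and 5.52, 3.24 and 3.02 CPM in d to f. The mast cell protease Cpa3 was at 1.24, 0.640 and 1.81 CPM in a to c and 2.21, 0.771 and 1.13 CPM in d to f, and Mcpt8 of basophils was at 0. The collagen gene Col3a1, chosen after its values were seen, was at 0 CPM in all of a to c and 18.5, 14.5 and 12.1 CPM in d to f, at least 9.98-fold higher in d to f, and overlaps another gene on the same strand. Mesothelial and fibroblast genes summed to 10.3, 3.20 and 7.69 CPM in a to c and 40.0, 32.2 and 34.2 CPM in d to f.

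Neutrophil genes summed to 1029, 1253 and 1197 CPM in a to c and 2310, 2217 and 2074 CPM in d to f, led by Retnlg, at 606, 682 and 581 CPM in a to c and 1965, 1794 and 1659 CPM in d to f, while S100a8 was at 7.03, 9.60 and 10.9 CPM in a to c and 7.45, 7.25 and 7.93 CPM in d to f. Of 9 neutrophil genes tested 1 was higher in a to c and 3 in d to f (3 and 2 with totals alone). The median log2 difference of 0.28 turned to -0.27 with totals alone. Dendritic cell genes summed to 684, 627 and 565 CPM in a to c and 1081, 1425 and 1508 CPM in d to f. The MHC class II gene H2-Ab1 was at 94.2, 62.7 and 58.8 CPM in a to c and 222, 308 and 316 CPM in d to f and the integrin Itgax at 317, 337 and 311 CPM in a to c and 271, 435 and 291 CPM in d to f. All 5 dendritic cell genes tested were higher in d to f (4 of 5 with totals alone, medians 2.30 and 1.75), and the call on Itgax is lost with totals alone, with the ceiling corrected and without a, c or e. Mast cell and basophil genes summed to 87.2, 60.2 and 89.1 CPM in a to c and 124, 104 and 91.0 CPM in d to f, with 1 of 2 tested, Hdc, higher in d to f. Cell cycle genes summed to 72.8, 54.4 and 40.2 CPM and 52.1, 33.6 and 43.4 CPM, with Mki67 at 5.37, 0.640 and 2.71 CPM in a to c and 32.6, 10.3 and 15.5 CPM in d to f, and 2 of 5 tested were higher in each layout (Mki67 has a near-identical copy). Erythroid and platelet genes summed to 696, 474 and 517 CPM and 730, 812 and 772 CPM, led by Pf4 at 538, 264 and 319 CPM in a to c and 303, 336 and 388 CPM in d to f, and 6 of 8 tested were higher in d to f (4 with totals alone). Of all genes tested 21.8% were higher in d to f (9.52% with totals alone), with a median of -0.02 (-0.57). Whether the other cells differ in number or in RNA per cell between the layouts cannot be told apart in bulk samples.

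In layout 2, where no ceiling was seen, a few genes held a large share of the counts. The 10 highest genes held 15.3 ± 0.403% of counts on genes (SD, n = 3), or 27.3% per kb of exon, and 276 genes held 50% of them. Retnla, which encodes the secreted protein RELMα, was first by CPM at 24104, 29485 and 22773 CPM in d, e and f, and first per kb of exon as well. Next by CPM were the chemokine Ccl6 at 21309, 25423 and 21046 CPM and the surface protein Ly6c2 at 22735, 22149 and 22396 CPM, followed by Actb, Tmsb4x and Srgn, the proteoglycan core of granules, at 12279.9, 13329.7 and 11614 CPM. Fth1, mt-Rnr2, B2m, Pla2g7, Ly6e, Saa3 and the chemokine Ccl9 came next, then Itgb2, the β2 integrin chain, at 5816, 7523 and 5724 CPM. The 20 highest were completed by mt-Nd4, mt-Nd1, H2-K1, Arpc2, Prr13 and Rpl4. Of these 20 genes 14 were also among the 20 highest per kb of exon.

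Library e was the highest of the 3 in Retnla, Ccl6, Ccl9 and Itgb2, and the lowest in mt-Rnr2, the mitochondrial ribosomal RNA, at 18115, 5026 and 8911 CPM. Mitochondrially encoded genes held 4.35, 2.44 and 2.94% of counts in d, e and f. Without e the 10 highest genes held 15.3% of counts. Ly6c2, Itgb2, mt-Nd4 and Rpl4 have a near-identical copy and mt-Nd1 and Pla2g7 overlap another gene, so their counts are uncertain.

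In layout 1 the ceiling hides the order of the highest genes. By CPM the 20 highest of a to c were Tmsb4x, Ccl6, B2m, Ly6c2, mt-Rnr2, Retnla, H2-D1, mt-Co1, Srgn, Fth1, mt-Atp6, Saa3, Cd24a, Ly6e, Pla2g7, Actb, mt-Co2, Itm2b, H2-K1 and Actg1. Tmsb4x, which binds actin monomers, was at 1691, 2618 and 1851 CPM and Actg1, the last of the 20, at 1579, 2163 and 1705 CPM. In each library these 20 genes stood at 82.5 to 100% of the ceiling, 15 of them above 90% in all 3. The highest mean of the 20 was 1.13 times the lowest in a to c, against 6.07 times in d to f. The 10 highest genes held 2.02 ± 0.461% of counts in a to c (SD, n = 3), but 7.84% with the ceiling corrected and 7.27% per kb of exon, and 819 genes were needed to hold 50%. Of these 20 genes 7 were among the 20 highest per kb of exon. Ly6c2, H2-D1, Cd24a, mt-Co1, mt-Atp6, mt-Co2 and Actg1 have near-identical copies and Pla2g7 overlaps another gene, so their counts are uncertain.

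**Figure D1:**
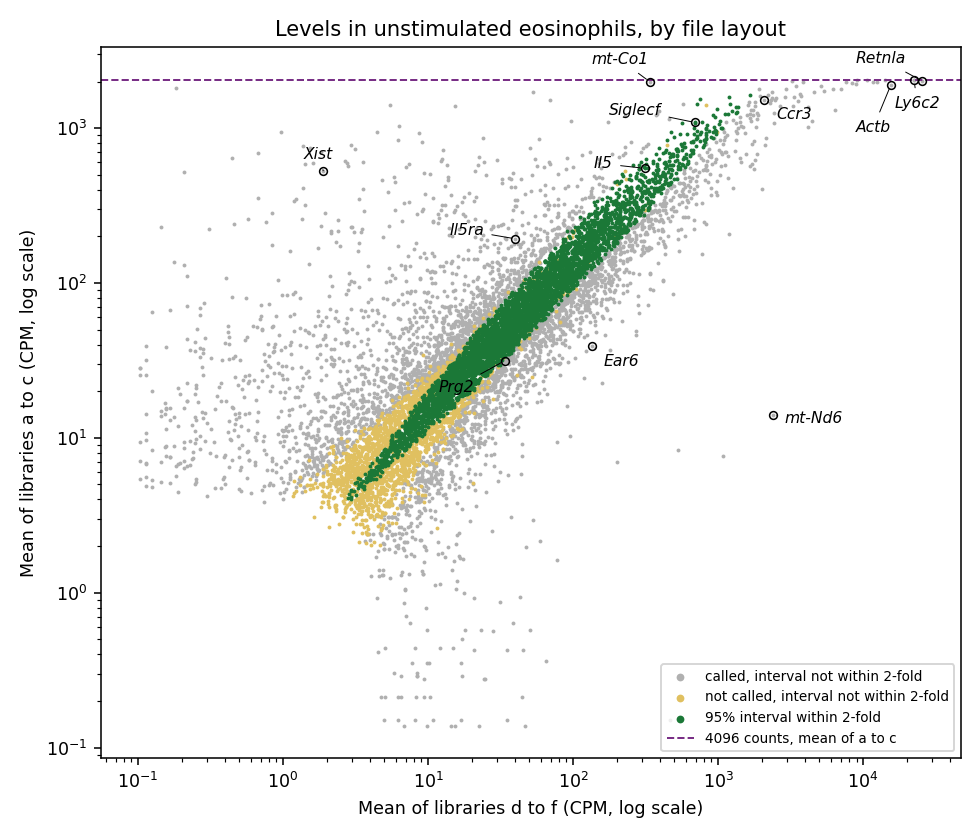
Mean level of 9976 genes in libraries d to f (horizontal axis, CPM, log scale) and in a to c (vertical axis, CPM, log scale), genes with both means above 0.1 CPM. Green marks genes whose 95% interval of the difference lies within 2-fold, grey and yellow the other genes with and without a call, and the dashed line the mean of the ceiling of 4096 counts in a to c.

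By CPM the layouts shared 71 of their 100 highest genes and 345 of 500, and per kb of exon 65 of 100 and 341 of 500. Of the 10 and 20 highest by CPM they shared 8 and 13, and 3 and 10 per kb of exon, but near the ceiling the 10 and 20 of a to c cannot be told. The 8 shared among the 10 were Retnla, Ccl6, Ly6c2, Tmsb4x, Srgn, Fth1, mt-Rnr2 and B2m. Across 10184 genes Spearman correlations of CPM were 0.976 to 0.984 within a to c, 0.960 to 0.980 within d to f and 0.787 to 0.816 for the 9 pairs across layouts.

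Levels of single genes were then compared between layouts by edgeR with TMM scaling, coded as log2 of d to f over a to c, so positive values are higher in d to f. Of 10184 genes tested 4658 (45.7%) had an adjusted p under 0.05, 2439 (23.9%) higher in a to c and 2219 (21.8%) higher in d to f. For 6653 genes (65.3%) the 3 libraries of one layout did not overlap the 3 of the other by CPM. List members without overlap are to be read against this share. A gene was taken to lie within 2-fold when the 95% interval of its difference did, which held for 4442 genes (43.6%), 686 of them with a call. TMM moved the median of all genes by 0.54 log2, from -0.56 to -0.02, so a gene with equal CPM in both layouts has a difference near 0.54. With library totals alone, chosen after seeing the data, 5027 genes were higher in a to c and 970 in d to f, so that the share of calls higher in a to c went from 52.4% to 83.8%. All 2439 genes higher in a to c and 970 of those higher in d to f were called with both scalings and none in opposite directions. Within 2-fold by both scalings lay 2301 genes (22.6%), and these are the levels taken to be shared by the layouts. The counts of a to c were also corrected for the ceiling, for single genes by a choice made after seeing the data, which supposes that identifiers were collapsed. Of the 2301 genes 2246 were also within 2-fold with this correction, and of the 2219 genes higher in d to f 2109 were called so with it. Without library e 2665 genes were higher in a to c, 2471 in d to f and 4653 within 2-fold.

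How many genes lay within 2-fold varied with level, here the mean CPM of the 2 layouts in bins chosen after seeing the data. Below 10 CPM 12.2% did (0.677% by both scalings), at 10 to 30 CPM 42.4% (14.9%) and at 30 to 100 CPM 61.2% (35.2%). At 100 to 300 CPM 60.4% did (41.4%), at 300 to 1000 CPM 52.2% (42.0%) and at 1000 to 3000 CPM 20.2% (17.0%), and none of the 18 genes above did. This share also depends on the width of the interval, with medians of 1.79, 1.14, 0.792, 0.678, 0.699 and 0.754 log2 in the same order. By the difference alone, whatever its interval, 58.6, 74.0, 79.7, 75.8, 66.4 and 46.8% were under 2-fold. The shares called higher in d to f were 13.996, 14.9, 22.2, 32.8, 47.2 and 86.2%, and 14.5, 15.6, 22.7, 31.3, 37.2 and 46.8% with the ceiling corrected, so counts for lists of abundant genes are to be read against their level. The highest gene by CPM within 2-fold by both scalings was Laptm5, a lysosomal membrane protein of blood cells, at 1479, 1857 and 1560.2 CPM in a to c and 1822, 1522 and 1666 CPM in d to f. The interferon-induced Ifitm3 was at 1217, 1374 and 1200.3 CPM in a to c and 1329.6, 1205 and 1539 CPM in d to f and Itgam, the αM integrin chain, at 1159, 1317 and 1292 CPM in a to c and 1426, 1223 and 1358 CPM in d to f. The 2 sets of values overlap in all 3 genes. Their log2 differences of 0.57, 0.64 and 0.63 were called higher in d to f (adjusted p = 0.0157, 0.00621 and 0.00504), calls all lost with totals alone (0.0310, 0.10 and 0.0867), and that on Laptm5 without a, c or d. In a to c they stood at 80.8, 63.0 and 62.8% of the ceiling, which may lower such values, and with it corrected the differences were -0.44, 0.0172 and 0.00313, with the first called higher in a to c, the other calls lost and all 3 within 2-fold. They were followed, among others, by Lst1, Cyp4f18, Rgs2, F5, Arpc5, Ucp2, Txnip, Lgals3bp, Cotl1, Man2b1, Oasl2, Slfn2, Tmbim6, Lpcat2 and Myh9. This order goes by the rank of each gene by CPM in the layout where it stood lower. Txnip, which binds thioredoxin, was at 1018, 997 and 987 CPM in a to c and 884, 1181 and 1077 CPM in d to f, and the mitochondrial carrier Ucp2 at 1022, 1065 and 939 CPM in a to c and 1022, 1167 and 1018 CPM in d to f. Txnip and Ucp2 overlapped between the layouts. Cyp4f18, F5, Ucp2, Txnip, Lgals3bp, Oasl2, Tmbim6 and Lpcat2 were called higher in d to f, calls all lost with totals alone and with the ceiling corrected. The calls on Cyp4f18, F5 and Tmbim6 are also lost without a, c, d or f, that on Lgals3bp without a, c or f and that on Oasl2 without a or c. Man2b1 and Myh9 were not called, but were higher in a to c with totals alone (-0.43 and -0.40) and with the ceiling corrected (-0.57 and -0.43). Laptm5 and these followers were taken by that rank after their values were seen. Itgam, Cyp4f18, F5, Ucp2, Txnip and Lpcat2 overlap another gene and Slfn2 has a near-identical copy, so these are uncertain.

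Granule protein genes were low by CPM, apart from those shared with other cells. Epx, eosinophil peroxidase, was at 0.827, 1.92 and 1.81 CPM in a to c and 1.38, 2.01 and 1.32 CPM in d to f and Prg3, a homologue of Prg2, at 0.827, 1.28 and 1.36 CPM in a to c and 1.93, 1.85 and 1.70 CPM in d to f, both chosen after their values were seen. Ear6 was the highest of the Ear ribonucleases by CPM, at 33.1, 46.7 and 37.1 CPM in a to c and 132, 138 and 133 CPM in d to f, and Ear1, also chosen after its values were seen, was at 4.96, 3.84 and 1.36 CPM in a to c and 7.45, 7.40 and 11.3 CPM in d to f. Ear6 and Ear1 were higher in d to f without overlap, while Epx overlapped and Ear10 and Ear14 were at 0 in all 6 libraries. Srgn, Cd63 and Lgals3 were the abundant members by CPM, with the tetraspanin Cd63 at 976, 1124 and 946 CPM in a to c and 1388, 1623 and 1418 CPM in d to f and the lectin Lgals3 at 1073, 1242 and 1082 CPM in a to c and 1287, 1205 and 1285 CPM in d to f. All 8 members tested were higher in d to f (5 with totals alone), against 21.8% of all genes (9.52%). None lay within 2-fold, against 43.6% of all genes, but 3 did with totals alone, against 33.6%, and 2 with the ceiling corrected. The median log2 difference was 1.62 against -0.02 over all genes (1.06 against -0.57 with totals alone). The calls on Lgals3, Prg2 and Ear2, the last chosen after its values were seen, are lost with totals alone. Those on Prg2 and Ear2 are also lost with DESeq2 and without a or b, that on Prg2 without c or e as well, and that on Lgals3 with the ceiling corrected (0.18). Ear1 has near-identical copies.

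Chains of the receptors for cytokines that keep eosinophils alive ranged widely in level. Csf2rb, the signalling chain shared by the IL-3, IL-5 and GM-CSF receptors, was at 1458, 1791 and 1660.1 CPM in a to c and 2202, 2324 and 2061 CPM in d to f, and Csf2ra at 1259, 1538 and 1355 CPM in a to c and 3565, 3053 and 3195 CPM in d to f. Il1rl1, the IL-33 receptor, was at 641, 732 and 779 CPM in a to c and 1036, 1055 and 946 CPM in d to f. All 3 were higher in d to f without overlap, by log2 differences of 0.97, 1.78 and 1.04, but Csf2rb stood at 81.4% of the ceiling in a to c and its difference was -0.0893 with the ceiling corrected. Il3ra, the IL-3-binding chain, chosen after its values were seen, was at 49.2, 46.1 and 57.9 CPM in a to c and 42.5, 67.4 and 40.0 CPM in d to f, and Il5ra was at 43.0, 35.8 and 41.4 CPM in d to f. Crlf2, a chain of the TSLP receptor, was at 460.5, 478 and 462 CPM in a to c and 493, 539 and 448 CPM in d to f and Csf1r at 406, 401 and 409.6 CPM in a to c and 365, 452 and 401 CPM in d to f, both overlapping and both within 2-fold by both scalings. Their differences of 0.63 and 0.55 were called higher in d to f (adjusted p = 0.00428 and 0.00926), calls lost with totals alone (0.0776 and -0.00139). Of 29 cytokine receptor genes tested 1, Il5ra, was higher in a to c and 15 in d to f, 13 lay within 2-fold and 10 by both scalings, against 23.9, 21.8, 43.6 and 22.6% of all genes. The median difference was 0.53 against -0.02 over all genes, and -0.03 against -0.57 with totals alone, where 8 were higher in a to c and 5 in d to f against 49.4 and 9.52% of all genes. Csf2rb and Csf2rb2 are near-identical copies of each other and Csf1r overlaps a gene on the opposite strand, so their levels are uncertain.

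Besides Ccr3, the chemoattractant receptors Ccr1, P2ry14, C3ar1 and the PAF receptor Ptafr were well expressed in both layouts. Ccr1 was at 761, 920.0 and 893 CPM in a to c and 800.3, 819.9 and 853 CPM in d to f. P2ry14 was at 816, 809.8 and 772 CPM in a to c and 636, 453 and 659 CPM in d to f and the C3a receptor C3ar1 at 600.2, 581 and 602 CPM in a to c and 634, 521 and 708 CPM in d to f. Ccr1 and C3ar1 overlapped and P2ry14 was lower in d to f by CPM, and all 3 lay within 2-fold by both scalings. P2ry14 was called higher in a to c with totals alone (-0.46). The differences of Ccr1 and C3ar1, 0.49 and 0.61, were called higher in d to f (adjusted p = 0.0209 and 0.00487), calls lost with totals alone (-0.0592 and 0.0610). That on Ccr1 is also lost with the ceiling corrected (0.14) and without a, c or f. Ptafr was at 577, 639 and 623 CPM in a to c and 774, 828 and 902 CPM in d to f, higher in d to f without overlap by 0.99 log2. Cxcr4, chosen after its values were seen, was at 229, 219.6 and 211 CPM in a to c and 136, 143 and 164 CPM in d to f, without overlap but within 2-fold by both scalings (-0.03, and -0.58 and called with totals alone). Of 23 tested 3 were higher in a to c and 10 in d to f, 8 lay within 2-fold and 6 by both scalings, against 23.9, 21.8, 43.6 and 22.6% of all genes. The median was 0.08 against -0.02 over all genes (-0.46 against -0.57 with totals alone, 11 and 7 against 49.4 and 9.52%, and 0.0113 with the ceiling corrected, 3 and 9). Ccr8, Cxcr3, Fpr3, Ptgdr and Hrh4 were at 0 in all 6 libraries.

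High among inhibitory and activating receptors by CPM were Siglecf, the low-affinity IgG receptor Fcgr3 at 1269, 1616 and 1326 CPM in a to c and 1662, 1615 and 1542 CPM in d to f and the signalling chain Fcer1g at 957, 1111 and 967 CPM in a to c and 1638, 2144 and 1686 CPM in d to f. Cd300lf was at 626, 711 and 728 CPM in a to c and 515, 354 and 511 CPM in d to f and Fcgr2b, the inhibitory IgG receptor, at 589.9, 577 and 666 CPM in a to c and 617, 641 and 593 CPM in d to f. Fcer1g and Cd300lf did not overlap, the first higher and the second lower in d to f by CPM, whereas Fcgr3 and Fcgr2b overlapped. The differences of Fcgr3 and Fcgr2b, 0.74 and 0.56, were called higher in d to f (adjusted p = 0.00401 and 0.00619), calls lost with totals alone (0.19 and 0.0104) and with the ceiling corrected (0.00648 and 0.34). Siglecf, Cd300lf and Fcgr2b lay within 2-fold by both scalings, the first 2 at -0.12 and -0.05 (-0.66 and -0.59, both called, with totals alone). Siglece, chosen after its values were seen, was at 70.3, 48.0 and 32.1 CPM in a to c and 9.10, 3.55 and 7.18 CPM in d to f, higher in a to c, a log2 difference of -2.43. Of 39 tested 10 were higher in a to c and 13 in d to f, 19 lay within 2-fold and 11 by both scalings, against 23.9, 21.8, 43.6 and 22.6% of all genes. The median was 0.20 against -0.02 over all genes (-0.36 against -0.57 with totals alone, 15 and 9 against 49.4 and 9.52%). Tlr9 was at 0 throughout. Fcgr3, Fcgr2b and Cd300lf have near-identical copies, so their levels are uncertain.

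Of adhesion molecules 15 of 22 tested lay within 2-fold, against 43.6% of all genes and 52.2% of those at 300 to 1000 CPM by the mean of the layouts, where the median of this list, 307 CPM, lies. Besides Itgam, Cd47 was at 1334, 1477 and 1303 CPM in a to c and 1561, 939.8 and 1600.4 CPM in d to f. Selplg, the P-selectin ligand, was at 961, 1132 and 895 CPM in a to c and 879, 729.5 and 882 CPM in d to f and Adgre1, the F4/80 antigen of macrophages and eosinophils, at 856, 1015 and 988 CPM in a to c and 666, 789.7 and 695 CPM in d to f. Cd47 overlapped, Selplg and Adgre1 were lower in d to f by CPM, and all 3 lay within 2-fold by both scalings. Adgre1 was called higher in a to c with totals alone (-0.41). Itgb2, at 1182, 1443 and 1276 CPM in a to c against 5816, 7523 and 5724 CPM in d to f, was higher in d to f, a log2 difference of 2.84. Of the 22 tested 3 were higher in a to c and 9 in d to f (3 and 5 with the ceiling corrected, median 0.0811), and 9 lay within 2-fold by both scalings, against 23.9, 21.8 and 22.6% of all genes. The median was 0.33 against -0.02 over all genes (-0.23 against -0.57 with totals alone, 8 and 3 against 49.4 and 9.52%). Of all genes at 300 to 1000 CPM 17% were higher in a to c and 47.2% in d to f, with a median of 0.37. With the ceiling corrected 22 and 37.2% of those genes were, with a median of 0.15, and 42.0% lay within 2-fold by both scalings. The call on Cd47 is lost without a, c, d or f, and its difference turns from 0.53 to -0.01 with totals alone and -0.20 with the ceiling corrected. Itgb2 has a near-identical copy and Itgam overlaps another gene.

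Transcription factors of the eosinophil lineage were present throughout. Spi1, or PU.1, was at 1034, 1173 and 1015 CPM in a to c and 1245, 1437 and 1289 CPM in d to f and Cebpb at 941, 1098 and 1044 CPM in a to c and 1608, 1369.6 and 1331 CPM in d to f. Gata1, which the lineage requires, was at 243, 254 and 263 CPM in a to c and 268, 401 and 239 CPM in d to f and Cebpe, required for late granulocyte maturation, at 478, 564 and 402 CPM in a to c and 147, 163 and 141 CPM in d to f, both chosen after their values were seen. Cebpe was higher in a to c without overlap, a log2 difference of -1.13, and Cebpb and Spi1 were higher in d to f, while Gata1 overlapped. Id2 was at 929.6, 1013 and 953 CPM in a to c and 1043, 578 and 979 CPM in d to f and Klf6 at 801, 627 and 869.9 CPM in a to c and 728, 466 and 506 CPM in d to f, both within 2-fold by both scalings. Id2 and Klf6 overlapped, with e the lowest of the 6 in both. Xbp1, whose loss stops eosinophil development and which was chosen after its values were seen, was at 594, 749.7 and 689 CPM in a to c and 372, 379.6 and 372 CPM in d to f, a difference of -0.31 (adjusted p = 0.115), but called with totals alone (-0.86) and with the ceiling corrected (-0.56). Of 36 tested 4 were higher in a to c and 12 in d to f, 19 lay within 2-fold and 11 by both scalings, against 23.9, 21.8, 43.6 and 22.6% of all genes. The median was 0.33 against -0.02 over all genes (-0.22 against -0.57 with totals alone, 15 and 5 against 49.4 and 9.52%, and 0.14 with the ceiling corrected, 5 and 12). The median level of the list is 127 CPM by the mean of the layouts. Of all genes at 100 to 300 CPM 23.8% were higher in a to c and 32.8% in d to f, with a median of 0.11. The calls on Spi1 and Gata1 are lost with totals alone, and Cebpb overlaps another gene.

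Immediate early genes were expressed at a moderate level after 18 h. Junb was at 680.4, 646 and 667 CPM in a to c and 643, 367 and 457 CPM in d to f. Zfp36, which destabilizes cytokine mRNA, was at 537, 616 and 587 CPM in a to c and 483, 597 and 387 CPM in d to f and Ier5 at 518, 594 and 588 CPM in a to c and 369, 444 and 326 CPM in d to f, all 3 within 2-fold by both scalings. Btg2 was at 467, 389 and 393 CPM in a to c and 175, 168 and 159.8 CPM in d to f, higher in a to c without overlap, a log2 difference of -0.76. Zfp36 overlapped, while Junb and Ier5 were lower in d to f by CPM, with library e lowest for Junb and f for Ier5. Ier5 was called higher in a to c with totals alone (-0.58). Of 20 tested 5 were higher in a to c and 8 in d to f, 6 lay within 2-fold and 5 by both scalings, against 23.9, 21.8, 43.6 and 22.6% of all genes. The median was 0.24 against -0.02 over all genes (-0.32 against -0.57 with totals alone, 8 and 6 against 49.4 and 9.52%, and 0.16 with the ceiling corrected, 5 and 8). Junb and Zfp36 overlap genes on the opposite strand.

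Chemokines made up most of the cytokine transcripts. Behind Ccl6 and Ccl9, both near the ceiling in a to c, stood Il1rn, the IL-1 receptor antagonist, at 1179, 1309.8 and 1279 CPM in a to c and 1678, 2176 and 1749 CPM in d to f, and Ccl2 at 456, 304 and 463 CPM in a to c and 1265, 947 and 1579.8 CPM in d to f. Ccl5 was at 594, 457 and 536 CPM in a to c and 655, 560.0 and 809.6 CPM in d to f and Cxcl10 at 438, 316 and 489 CPM in a to c and 612, 458 and 712 CPM in d to f. Il1rn and Ccl2 were higher in d to f without overlap, by 1.12 and 2.18 log2, whereas Ccl5 and Cxcl10 overlapped. Il4 was at 123, 118 and 107 CPM in a to c and 41.7, 39.2 and 36.8 CPM in d to f and Il13 at 4.13, 12.8 and 15.4 CPM in a to c and 12.1, 12.5 and 10.01 CPM in d to f. Vegfa, the vascular growth factor, was at 20.3, 18.6 and 28.5 CPM in a to c and 179, 166 and 131 CPM in d to f. Il4 was higher in a to c and Vegfa in d to f without overlap (-1.01 and 3.36 log2), Il13 overlapped, and these 3 were chosen after their values were seen. Of 40 tested 5 were higher in a to c and 19 in d to f, 11 lay within 2-fold and 8 by both scalings, against 23.9, 21.8, 43.6 and 22.6% of all genes. The median was 0.67 against -0.02 over all genes (0.11 against -0.57 with totals alone, 8 and 13 against 49.4 and 9.52%). Ifng, Csf2, Ccl11 and Tnfsf13 were at 0 in all 6 libraries. The call on Ccl5 is lost with totals alone, and Cxcl10 overlaps a gene on the opposite strand.

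Enzymes of the lipoxygenase pathway were abundant. Alox15, a lipoxygenase that acts on arachidonic acid, was at 1543, 2047 and 1579 CPM in a to c and 2398, 2177 and 2456 CPM in d to f. Alox5ap, the 5-lipoxygenase activating protein, was at 1417, 1866 and 1452 CPM in a to c and 3058, 2739.8 and 2841 CPM in d to f and Alox5 at 952, 1084 and 927 CPM in a to c and 1047, 1134 and 1055 CPM in d to f. Ltc4s, the leukotriene C4 synthase, was at only 3.31, 1.92 and 1.36 CPM in a to c and 3.31, 4.78 and 9.25 CPM in d to f and was chosen after its values were seen. Alox15 and Alox5ap were higher in d to f without overlap (0.98 and 1.41 log2), Alox5 overlapped, and for Ltc4s library a met library d. Lpcat2, an enzyme of PAF synthesis, was at 890.4, 983 and 890.2 CPM in a to c and 938, 933 and 1026 CPM in d to f and Tbxas1, the thromboxane synthase, at 485, 512 and 521 CPM in a to c and 422, 475 and 398 CPM in d to f. Lpcat2 overlapped and Tbxas1 was lower in d to f by CPM, and both lay within 2-fold by both scalings (0.61 and 0.32, and 0.0664 and -0.23 with totals alone). Of 17 tested 3 were higher in a to c and 8 in d to f, 6 lay within 2-fold and 4 by both scalings, against 23.9, 21.8, 43.6 and 22.6% of all genes. The median was 0.61 against -0.02 over all genes (0.07 against -0.57 with totals alone, 5 and 5 against 49.4 and 9.52%). With the ceiling corrected 3 and 5 were, with a median of 0.25. The median level of the list is 139 CPM by the mean of the layouts. Of all genes at 100 to 300 CPM 23.8% were higher in a to c and 32.8% in d to f, with a median of 0.11. The call on Alox5 is lost with totals alone and with the ceiling corrected. Alox15 stood at 84.8% of the ceiling in a to c, and its difference turns to -0.14 with the ceiling corrected. The genes Alox5ap, Ltc4s, Pla2g7, Lpcat2 and Tbxas1 overlap other genes.

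Survival genes were led, by CPM, by Mcl1, the BCL-2 family member on which granulocytes depend, at 1133, 1323 and 1208 CPM in a to c and 1484, 1791 and 1463 CPM in d to f. Bcl2a1a was at 654, 711 and 677 CPM in a to c and 1194, 916 and 1101 CPM in d to f, and Birc3 at 319.9, 305 and 325 CPM in a to c and 235, 233 and 213 CPM in d to f. Mcl1 and Bcl2a1a were higher in d to f without overlap, by 0.92 and 1.19 log2, and Birc3 was lower in d to f by CPM but within 2-fold by both scalings. Birc3 was called higher in a to c with totals alone (-0.48). Pim1, an IL-5-responsive kinase, was at 1006, 853 and 986 CPM in a to c and 1323, 549 and 1096 CPM in d to f, with library e the lowest of the 6. Of 31 tested 5 were higher in a to c and 8 in d to f, 17 lay within 2-fold and 12 by both scalings, against 23.9, 21.8, 43.6 and 22.6% of all genes. The median was 0.07 against -0.02 over all genes (-0.48 against -0.57 with totals alone, 16 and 6 against 49.4 and 9.52%). The call on Mcl1 is lost with the ceiling corrected (0.33, adjusted p = 0.0822). Bcl2a1a has near-identical copies and Pim1 overlaps another gene.

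Antimicrobial and alternative activation genes were led, by CPM, by Retnla. Cybb, the catalytic chain of the NADPH oxidase, was at 1449.6, 1685 and 1566 CPM in a to c and 2597, 2368 and 2509 CPM in d to f and lysozyme Lyz2 at 1007, 853 and 916 CPM in a to c and 1394, 1321 and 1881 CPM in d to f. The chitinase-like Chil3, chosen after its values were seen, was at 232, 154 and 235 CPM in a to c and 1186, 914 and 1486 CPM in d to f. All 3 were higher in d to f without overlap, by 1.21, 1.27 and 3.07 log2, and library e was the lowest of d to f in each. Of 28 tested 2 were higher in a to c and 20 in d to f, 7 lay within 2-fold and the same 7 by both scalings, against 23.9, 21.8, 43.6 and 22.6% of all genes. The median was 1.24 against -0.02 over all genes (0.70 against -0.57 with totals alone, 5 and 19 against 49.4 and 9.52%). With the ceiling corrected 4 were higher in a to c and 15 in d to f, with a median of 0.81, and the call on Cybb, at 78.1% of the ceiling in a to c, is lost (0.25). The median level of the list is 474 CPM by the mean of the layouts, and of all genes at 300 to 1000 CPM 47.2% were higher in d to f, with a median of 0.37 (37.2% and 0.15 with the ceiling corrected). Lyz2 has a near-identical copy.

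Cytoskeletal and housekeeping genes differed between the layouts in both directions. Actb was at 1684, 2257 and 1771 CPM in a to c and 15993, 13393 and 17234 CPM in d to f and B2m at 1691, 2598 and 1848 CPM in a to c and 8615, 9002 and 9616 CPM in d to f, both near the ceiling in a to c. The signalling adaptor Tyrobp was at 1414, 1839.9 and 1419 CPM in a to c and 2199, 2583 and 2235 CPM in d to f. These 3 were higher in d to f without overlap, by 3.56, 2.69 and 1.13 log2. Gapdh, the glycolytic enzyme, was at 432, 501 and 461 CPM in a to c and 7.72, 2.78 and 3.97 CPM in d to f. Ppia was at 751, 880.3 and 680.4 CPM in a to c and 1.66, 1.54 and 0.944 CPM in d to f and Tpt1 at 1309, 1593 and 1311 CPM in a to c and 6.34, 4.63 and 5.48 CPM in d to f, 3 genes chosen after their values were seen. They were far higher in a to c, with log2 differences of -6.14, -8.56 and -7.47, and all 3 have near-identical copies, most of them pseudogenes, so these levels are uncertain. Of 40 tested 18 were higher in a to c and 17 in d to f, 6 lay within 2-fold and 5 by both scalings, against 23.9, 21.8, 43.6 and 22.6% of all genes. The median was -0.09 against -0.02 over all genes (-0.64 against -0.57 with totals alone, 21 and 12 against 49.4 and 9.52%). With the ceiling corrected 20 and 10 were, with a median of -0.47, and the calls on B2m and Tyrobp are lost (0.23 and 0.24). The median level of the list is 802 CPM by the mean of the layouts. Of all genes at 300 to 1000 CPM 17% were higher in a to c and 47.2% in d to f, with a median of 0.37. With the ceiling corrected 22 and 37.2% of those genes were, with a median of 0.15.

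**Figure D2:**
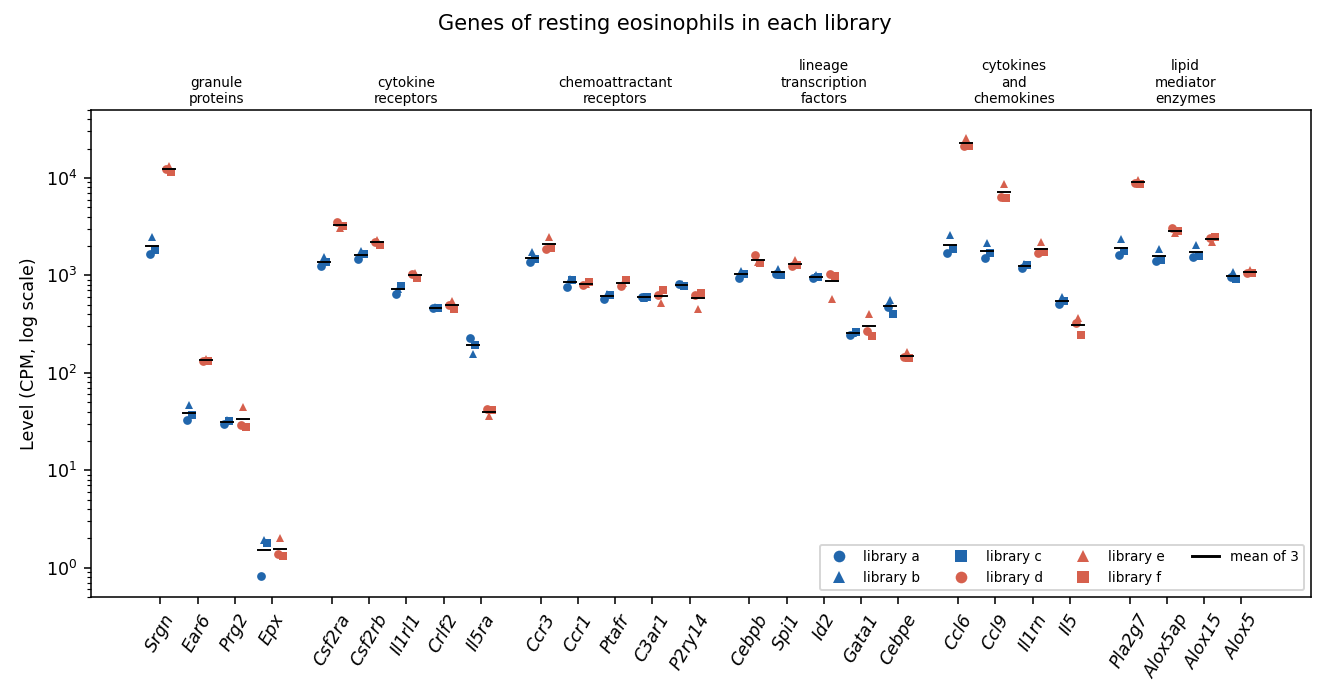
Level of genes of 6 roles in each unstimulated library (vertical axis, CPM, log scale), with gene names on the horizontal axis. Blue symbols are libraries a to c, red symbols d to f, and bars the mean of 3.

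Among called genes without overlap, the 10 with the largest differences higher in a to c were mt-Co2, at 1630.3, 2356 and 1721 CPM in a to c and 0 CPM in all of d to f, mt-Co3, Gm42418, Rpl23a, mt-Atp6, Rps6, mt-Nd3, Gm47415, Actg1 and Anxa11. The annexin Anxa11 was at 196, 182 and 163 CPM in a to c and 0 CPM in all of d to f, at least 291-fold higher in a to c, and mt-Co2 at least 3074-fold. Rps6, a ribosomal protein gene, was at 525, 638 and 523 CPM in a to c and 0 CPM in all of d to f. The 10 with the largest differences higher in d to f were Gm10801, Ddx3y, Gm10800, Gm15501, Gm7336, Gm10717, Gm27201, Gm21738, Rps12-ps9 and Fam221b. Gm10801 was at 0 CPM in all of a to c and 193, 455 and 1621 CPM in d to f, Gm15501 at 0 CPM in all of a to c and 81.1, 84.1 and 98.2 CPM in d to f and Fam221b at 0 CPM in all of a to c and 20.97, 21.1 and 24.0 CPM in d to f. None of these overlapped between layouts. All but Gm47415, Gm10801, Gm10800 and Ddx3y have near-identical copies or overlap other genes, so they are uncertain.

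Of 94 ribosomal protein genes tested 74 were higher in a to c and 6 in d to f, with a median of -2.89 (83 and 6, -3.44 with totals alone). Of all genes tested 23.9 and 21.8% were, with a median of -0.02 (49.4 and 9.52%, -0.57 with totals alone). Of 16 mitochondrially encoded genes 8 were higher in a to c and 6 in d to f, with a median of -0.95 (8 and 5, -1.49 with totals alone). Of these mt-Nd6, which alone among the protein-coding ones lies on the other strand and was chosen after its values were seen, was at 5.37, 16.6 and 19.9 CPM in a to c and 3238, 1821 and 2108 CPM in d to f. It overlaps another gene on the opposite strand. Near-identical copies were found for 12.7% of all genes tested, 7.70% of those within 2-fold by both scalings, 36.9% of the 665 genes at least 8-fold higher in a to c and 42.8% of the 145 at least 8-fold higher in d to f. An exon overlap on the opposite strand was found for 31.6% of all tested, 53.2% of those 665 genes and 21.4% of those 145. Pseudogenes were 98 of all 10183 genes with a symbol tested, 4 of the 665 and 45 of the 145. Whether copies or overlaps produce these differences was not tested.

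Among replicates the genes with the widest range differ between layouts. In a to c these were Lpl, Gm42427, Mau2, Gm48611, Cmah, Gm26740, Sik2, Zbtb20, Tnrc6b and A430073D23Rik. Lipoprotein lipase (Lpl) was at 76.5, 19.8 and 55.2 CPM and Cmah, which hydroxylates sialic acid, at 88.0, 30.1 and 64.2 CPM. Library b was the lowest in both, and in the other 8. In d to f they were Gm38359, Gm48611, Gm10801, Gm10800, Gm37033, Map3k3, Gm26789, Gm2245, Gm44005 and Gdap10. The kinase Map3k3 was at 133, 17.1 and 113 CPM and Gm38359 at 65.1, 6.79 and 85.2 CPM, with e the lowest in both. Gm48611 is on both lists. Gm42427, Cmah, A430073D23Rik and Gm2245 have near-identical copies and Sik2, Zbtb20 and Tnrc6b overlap other genes, so these are uncertain. The median range of log2 CPM was 0.26 over 4096 genes in a to c, the largest 1.95, and 0.35 over 2967 genes in d to f, the largest 3.65.

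Il5, the gene the mice carry as a transgene, was itself counted in the eosinophil libraries. It was at 506, 604 and 541 CPM in a to c and 323, 365 and 245 CPM in d to f. All of a to c were above all of d to f by CPM, a log2 difference of -0.27 (95% interval -0.68 to 0.13, adjusted p = 0.248) that lies within 2-fold, but -0.83 and called with totals alone, and -0.43 and called without e. Il5 overlaps a gene on the opposite strand, and transgene and endogenous transcripts cannot be told apart by these counts.

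The markers that identify the cells differed in how well the layouts match. Siglecf had a log2 difference of -0.12 (95% interval -0.44 to 0.20, adjusted p = 0.550) and lay within 2-fold by both scalings, though it was called at -0.66 with totals alone and at -0.61 with the ceiling corrected. Ccr3 was higher in d to f by 1.00 (adjusted p = 0.00149) and Il5ra higher in a to c, with a difference of -1.72 (adjusted p = 4.72e-06), neither overlapping. The call on Ccr3, which stood at 75.5% of the ceiling in a to c, is lost with the ceiling corrected (0.13, adjusted p = 0.525). Prg2, whose values overlap, had a difference of 0.68 (adjusted p = 0.0323), a call lost with DESeq2, with totals alone and without a, b, c or e.

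Across the stimuli of layout 1 Siglecf, Il5ra and Prg2 moved down with IFN-γ and E. coli together. Each stimulus was tested against the unstimulated libraries of its own layout, where 2986 of 9883 genes (30.2%) had an adjusted p under 0.05 with E. coli, 3120 (31.6%) with IFN-γ, 4844 (49.0%) with both and 1089 of 10556 (10.3%) with IL-4. Siglecf was at 697, 681 and 640.4 CPM with E. coli, 629, 519 and 638 CPM with IFN-γ and 317, 298 and 327 CPM with both, all below a to c, log2 changes of -0.68, -0.70 and -1.55. Il5ra was at 72.5, 76.4 and 75.2 CPM, 145, 119.6 and 132 CPM and 70.2, 79.7 and 51.2 CPM in the same groups, again all below a to c, changes of -1.35, -0.37 and -1.28. The call on Il5ra with IFN-γ (adjusted p = 0.0440) is lost with DESeq2, with its size factors, with no filter and without a, c or any 1 of the IFN-γ libraries.

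Prg2 was at 26.3, 26.3 and 29.3 CPM with E. coli, 13.98, 20.4 and 12.7 CPM with IFN-γ and 12.5, 12.7 and 11.05 CPM with both. It was below a to c in every library and fell with IFN-γ (-0.81) and with both (-1.13), while the difference with E. coli, -0.19, was not called (adjusted p = 0.462). Ccr3 was at 1446, 1308 and 1398 CPM, 1522, 1413 and 1644 CPM and 1496, 1340.2 and 1313 CPM, and its differences of -0.13, 0.17 and 0.10 were not called, except for 0.34 with IFN-γ when b is left out. Near the ceiling changes of Ccr3 may be compressed, and with the ceiling corrected, chosen after seeing the data, its differences were -0.0213, 0.0254 and -0.19, none called. With IL-4, in layout 2, Siglecf was at 954, 924 and 945 CPM, Ccr3 at 1314, 1417 and 1242 CPM, Il5ra at 67.2, 59.6 and 62.7 CPM and Prg2 at 68.9, 60.1 and 63.2 CPM. Siglecf, Il5ra and Prg2 were above all of d to f and Ccr3 below, by log2 0.39, 0.60, 0.83 and -0.72. All 4 calls with IL-4 (adjusted p = 0.0383, 0.0204, 0.0291 and 0.0117) are lost when a single library is left out: any IL-4 library for Siglecf, Il5ra and Prg2 and the first or last for Ccr3, d or f for Siglecf and Prg2, and f for Il5ra. That on Siglecf is also lost with no filter and with the file number as a replicate block, chosen after seeing the data.

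**Figure D3:**
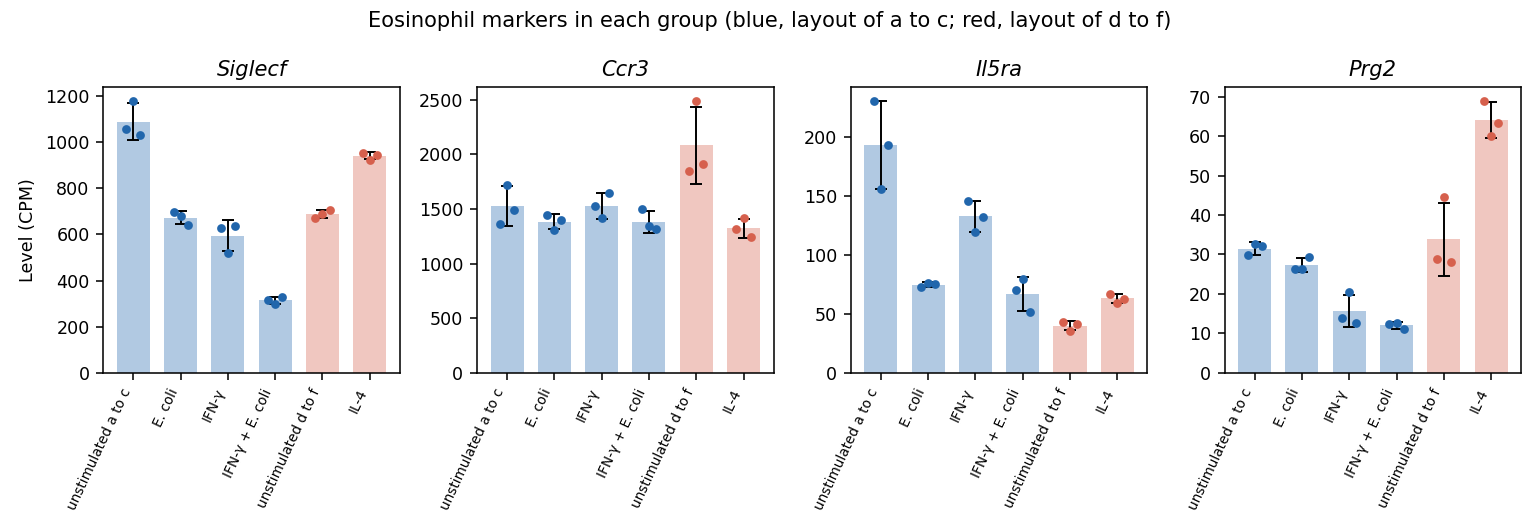
Level of the 4 markers (vertical axis, CPM, a scale of its own for each gene) in each group of eosinophils (horizontal axis), with 1 point per library. Bars are means and whiskers 1 SD of 3 libraries, blue for layout 1 and red for layout 2.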

How the data were processed

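RNA of the eosinophils was sequenced, and the counts per gene were deposited by the authors. The labels name CEL-Seq2 from 2 ng RNA, TopHat2 2.1.0 to GRCm38 and HTSeq 0.6.1 in union mode, and also fastp 0.20.1 and STAR 2.7.2a, without saying which libraries each applies to or whether molecular identifiers were collapsed. In a, b and c 39.4, 27.2 and 36.1% of the deposited counts stand on entries naming no gene (none in d to f), and these stay out of totals and tests.

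Members and gene lists were chosen with earlier results of these data known. Levels are CPM of the total on genes, with mean and SD over 3 libraries, and CPM per kb of GENCODE M21 exon (54165 of 55029 and of 54232 genes matched). Layouts were compared with edgeR 4.0.16 (R 4.3.3; TMM, filterByExpr, quasi-likelihood F test, Benjamini-Hochberg) on genes listed in both, and each stimulus with the unstimulated libraries of its layout. The biological coefficient of variation was 0.179, and TMM factors of a to f were 1.25, 1.15, 1.23, 0.846, 0.790 and 0.845. The fits were tested on simulated counts with 200 changed genes, as many up as down, and no ceiling. These counts do not cover the ceiling or the wide differences between the layouts. The 95% intervals come from the coefficient and F statistic and are approximate. A fold against a layout at 0 is a lower bound that sets its libraries to 3 counts. Near-identical copies are transcripts with 95% identity over 200 bases (BLAST+ 2.17.0).

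Named genes are the 4 markers, the 20 highest by mean CPM in each layout, the 10 largest differences in each direction among called genes whose libraries do not overlap and whose higher mean is at least 10 CPM, up to 6 of the highest members of each of 23 lists with those marker genes of other cells at 0, Il5, and the 10 widest ranges in each layout at 50 CPM or more. Some of these genes are not reported here. Alternatives were DESeq2 1.42.0 and its size factors, no filter, 10 counts in every library, thinning, a correction for the ceiling or only genes under 1024 counts in layout 1, a 2-fold difference as well, totals without mitochondrial and ribosomal protein genes, and leaving out each library. Library totals alone, only genes with no copy or exon overlap, the ceiling correction for single genes and a block on the number in the file names were chosen after seeing the data. Python 3.11.15, pandas 2.3.3, numpy 2.4.6 and matplotlib 3.10.9 were used.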

Additional observations from a re-analysis of the deposited data

Results flagged for a closer look

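Of 19 quantities examined over the 6 unstimulated libraries, 1 had a library far from the other 5: Prg2 was highest in library e, at 44.6 CPM. The gap was set against the range of all 6 libraries, which pools the 2 layouts. Where the layouts lie far apart, no single library can be flagged. Il5ra, for example, was at 156 to 230 CPM in a to c and 35.8 to 43.0 CPM in d to f. A chance rate of about 1 in 20 groups supposes 6 libraries of the same layout and does not apply. The other quantities are therefore not shown to be free of deviating libraries. Within layouts, e and b were most often the farthest, as given above. Outside the counts on genes, 39.4, 27.2 and 36.1% of the counts of libraries a, b and c stand on entries that name no gene, and these were not analysed here.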

How the results depend on the processing

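The numbers of genes that differ between layouts depend on the scaling, on the genes kept and on the threshold. DESeq2 size factors changed them little, to 2401 genes higher in a to c and 2267 in d to f. With library totals alone, chosen after seeing the data, 5027 genes were higher in a to c and 970 in d to f, and the differences of 34 of 183 named genes turned negative. Of these 21 were called by neither scaling, and the others were Adgre1 -0.41, Birc3 -0.48, Ccr1 -0.0592, Cd47 -0.00681, Csf1r -0.00139, Cyp4f18 -0.0437, F5 -0.0821, Lgals3bp -0.114, Ltb4r1 -0.48, Man2b1 -0.43, Myh9 -0.40, P2ry14 -0.46 and Tmbim6 -0.124. Of the rest 116 kept their side and whether they were called, 25 lost a call and 8 gained one. With the ceiling corrected, chosen for single genes after seeing the data, 22 lost a call, 2 gained one, 11 with no call in either fit changed side, and 13 with a call in at least 1 fit turned: Alox15 -0.14, Cd24a -0.25, Cd47 -0.20, Csf2rb -0.0893, Cyp4f18 -0.14, F5 -0.16, H2-D1 -0.74, Itm2b -0.0445, Laptm5 -0.44, Lgals3bp -0.0832, Man2b1 -0.57, Myh9 -0.43 and Tmbim6 -0.0305. With only genes free of copies and exon overlaps, also chosen after seeing the data, 1035 of 5604 were higher in a to c, 1120 in d to f and 2633 within 2-fold. Asking for a 2-fold difference as well left 1641 higher in a to c and 1139 in d to f. The cause was not tested.

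The 10 highest genes held 7.27% of counts in a to c and 27.3% in d to f per kb of exon, 7.84% in a to c with the ceiling corrected, and 15.8% in d to f without mitochondrial and ribosomal protein genes. Leaving out each library in turn gave 1923 to 2665 genes higher in a to c, 1817 to 2471 higher in d to f, 3584 to 4653 within 2-fold, 11424 to 11855 and 10467 to 10861 genes at 1 CPM in a to c and d to f, 69 to 71 of the 100 highest shared, and 1.76 to 2.19% and 15.3 to 15.5% of counts in the 10 highest. Of 1093 such differences of named genes 1002 kept their side and whether they were called, 22 changed side with no call, 53 lost a call and 16 gained one, and of 96 for the markers with stimuli 73, 1, 21 and 1. DESeq2 lost 5 calls of named genes and gained 4, its size factors lost 1, and no filter gained 6. Titles give the unstimulated libraries letters and the stimulated ones numbers, file names number every group 1 to 3, and no label says that libraries share mice or cultures, so the fits use no pairs. With the file number as a replicate block, chosen after seeing the data, the call on Siglecf with IL-4 (0.39) is lost and the other 15 marker results keep their side and whether they are called. Deviations from group means correlated at -0.263 to 0.121 between libraries of the same number, and 2 of 24 libraries, with the unstimulated ones counted for each stimulus, correlated best with their own number.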
